A study of Mus musculus with 6 samples.

Results

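Endothelial cells carry the surface molecules to which circulating leukocytes bind and past which they leave the blood. The 10 genes described here encode such molecules in mouse: the selectins Sele and Selp, the immunoglobulin-superfamily receptors Icam1, Icam2 and Vcam1, and the cell-cell junction molecules Pecam1, Esam, F11r, Jam2 and Jam3. They were taken by gene symbol from a table of 24411 genes, all 10 were found, and all 10 passed the filter on low counts that left 12720 genes for testing. Their levels were compared between 2 mouse endothelial lines, UV2, also written UV♀2, with the strain given as (BALB/c x C57BL/6)F1, and bEnd.3, with the strain given as BALB/c. There were 3 RNA-seq libraries of each line. Cells of both lines had been grown to confluency on 10-cm dishes and then held for 3 days in medium without serum, and were lifted with trypsin-EDTA for RNA extraction; no cytokine or other agent is named. bEnd.3 cells come from brain endothelium and were immortalised by a polyomavirus oncogene. Each group is a single cell line. The labels do not say whether the 3 libraries of a line are separate cultures, and p-values therefore reflect only the spread among these libraries, which may be technical.

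A leukocyte is first slowed on the vessel wall by selectins, which bind sugars on its surface. It then stops through its integrins, which bind ICAM and VCAM proteins, and finally passes between endothelial cells, where PECAM-1, ESAM and the junctional adhesion molecules (JAMs) stand. In resting endothelium ICAM-2 and PECAM-1 are made constitutively, while E-selectin, VCAM-1 and ICAM-1 are classically induced by inflammatory cytokines through the transcription factor NF-kB. P-selectin is stored in Weibel-Palade bodies, the secretory granules of endothelium, and moved to the surface on stimulation.

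Total expected counts were 21306441 to 26769149 in UV2 libraries and 21944529 to 28748128 in bEnd.3 libraries. Levels are CPM, for which each count was divided by its library's total after TMM scaling, and each log2 fold change is UV2 over bEnd.3 with its standard error (SE). A gene is called at an adjusted p under 0.05 from the quasi-likelihood test of edgeR, with the Benjamini-Hochberg adjustment taken across the 12720 tested genes. All 8 endothelial markers stood above 1 CPM in every library, with a sum of 9020 to 10600 CPM in UV2 and 9443 to 10030 CPM in bEnd.3, most of it from Cdh5, Tie1 and Kdr. Of these 8, Tie1 was called higher in UV2 (log2 fold change 0.88), Cdh5, Kdr and Tek were not called, and 4 were called lower: Robo4 (-2.34, beyond 2-fold), Eng (-0.69), Egfl7 (-0.67) and Erg (-0.35). Of 12 leukocyte markers, 3 were above 1 CPM in every UV2 library and 2 in every bEnd.3 library. Their sum was 704 to 752 CPM in UV2, carried by Lyz2, Cd68 and Itgax, and 99.4 to 167 CPM in bEnd.3, carried by Cd68. The LFA-1 subunit genes Itgal and Itgb2 went the other way, at 0.0787 and 0.959 CPM in UV2 against 2.01 and 4.31 CPM in bEnd.3, both called lower. The pan-leukocyte gene Ptprc had 0 counts in UV2 and 1 count in bEnd.3, and Cd3e and Adgre1 had 0 in all libraries. Platelet markers summed to 8.33 to 10.6 CPM in UV2 and 12.0 to 16.5 CPM in bEnd.3 with Gp6 at 0, and fibroblast and mural markers to 12.6 to 23.6 CPM in UV2 and 3.77 to 5.91 CPM in bEnd.3. Epithelial markers summed to at most 0.501 CPM in UV2 and 0.163 CPM in bEnd.3, with Epcam and Krt14 at 0. What part these other transcripts have in the results below was not tested. In bulk RNA, fewer cells that make a transcript and less of it per cell cannot be told apart.

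At the RNA level UV2 cells carried more E-selectin, VCAM-1 and ICAM-1, and far less JAM-B, JAM-C and P-selectin, than bEnd.3 cells. The transcripts of PECAM-1, ICAM-2, ESAM and JAM-A were abundant in both lines and differed little. Of the 10 genes, 4 were called higher in UV2, against 33.9% of all tested genes, and 3 were called lower, against 33.3%, so the share called was close to that of the transcriptome as a whole. The sizes were larger: 3 of the 10 were higher beyond 2-fold and 3 were lower beyond 2-fold by edgeR's glmTreat, where 10.6% and 8.81% of tested genes were. The median absolute log2 fold change of the 10 genes was 2.33, and that of all tested genes was 0.50. The 10 genes were chosen with earlier results of these data known, and no test of them as a set was run. The median signed value was 0.10 for the 10 genes and -0.01 for all tested genes. At 8 of the 10 genes the 3 UV2 values lay entirely above or below the 3 bEnd.3 values, close to the 73.2% of tested genes at which they did.

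**Figure D1:**
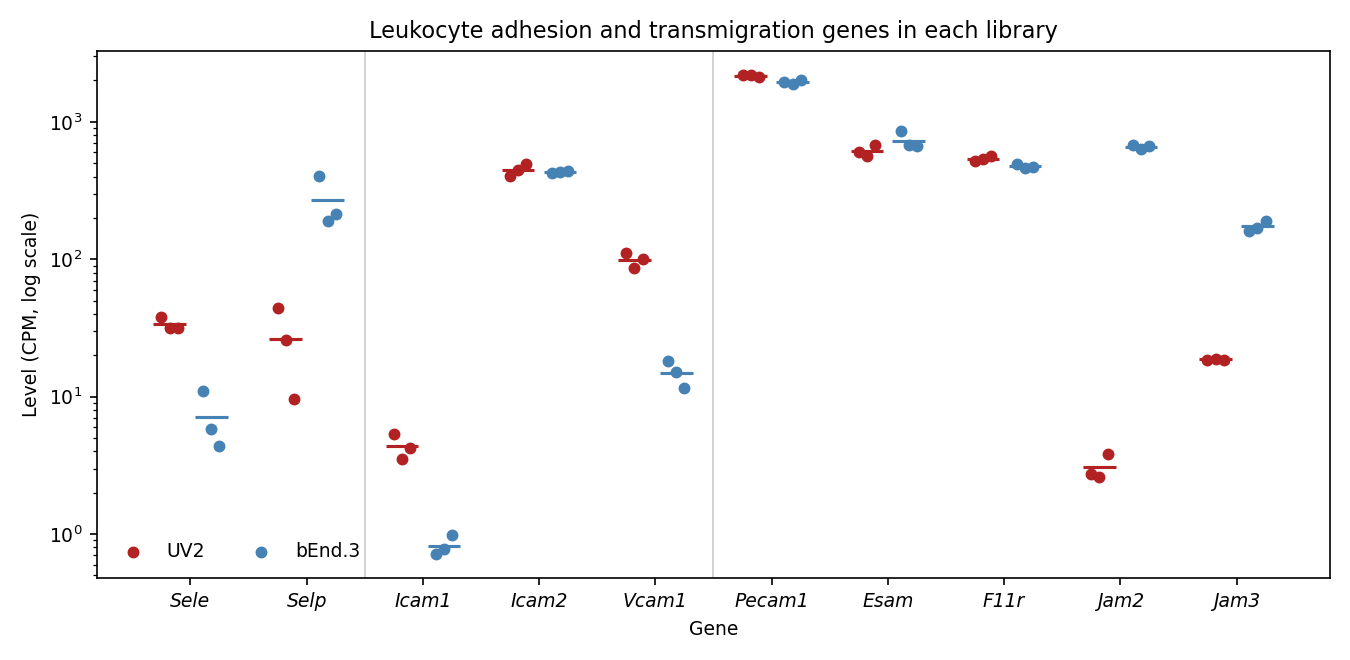
Level of each gene in each library, in CPM on a log axis, with UV2 in red and bEnd.3 in blue. Each point is 1 library and each bar is the mean of 3. Sele, Icam1 and Vcam1 sit higher in all 3 UV2 libraries, Selp, Jam2 and Jam3 sit lower, and the points of Icam2 and Esam overlap between lines.

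The selectins moved in opposite directions. Sele encodes E-selectin, which slows leukocytes on inflamed endothelium, and lies on chromosome 1 at 164039614 to 164058487. It had 38.1, 31.7 and 31.5 CPM in UV2 replicates 1, 2 and 3, against 10.99, 5.82 and 4.38 CPM in bEnd.3 replicates 1, 2 and 3. The lowest UV2 library stood well above the highest bEnd.3 library, and replicate 1 was the highest in each line. The mean was 33.8 ± 3.77 CPM in UV2 and 7.06 ± 3.475 CPM in bEnd.3 (SD, n = 3 each), a 4.83-fold difference (log2 fold change 2.27, SE 0.30, adjusted p = 0.000326).

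Selp encodes P-selectin, which is released to the surface from granules within minutes of stimulation, and lies 56.8 kb further along the same chromosome, at 164115264 to 164150026. It had 44.0, 25.8 and 9.68 CPM in UV2 replicates 1, 2 and 3, against 407, 190 and 213 CPM in bEnd.3 replicates 1, 2 and 3. All UV2 libraries were below all bEnd.3 libraries, but the spread inside each line was wide, 4.55-fold between the highest and lowest UV2 library and 2.14-fold between those of bEnd.3. Replicate 1 was again the highest in each line. The fall was 10.2-fold (log2 fold change -3.35, SE 0.54, adjusted p = 0.000861). Selp was the sole member of the 10 with values that were not whole, in 5 of 6 libraries, so the authors' counting shared some of its reads. The long non-coding gene Gm16548 overlaps 438 bases of Selp exons on the opposite strand, and it had 2.58, 0 and 1.35 expected counts in UV2 replicates 1, 2 and 3, against 48.5, 15.6 and 36.4 in bEnd.3 replicates 1, 2 and 3. These are far below the Selp counts of 251 to 1041 in UV2 and 4665 to 9064 in bEnd.3.

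Per kilobase of the longest coding transcript, which allows levels of different genes to be set side by side, E-selectin RNA made up 50.6%, 59.2% and 79.3% of the selectin RNA in UV2 replicates 1, 2 and 3. In bEnd.3 replicates 1, 2 and 3 it made up 3.09%, 3.49% and 2.37%. On this scale Sele was the more abundant of the endothelial selectin transcripts in every UV2 library and Selp in every bEnd.3 library. The sum of both was lower in UV2, at 19.3 ± 6.18 CPM per kb, than in bEnd.3, at 80.9 ± 35.7 CPM per kb (SD, n = 3 each). No test was run on these ratios.

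On the outer sides of Sele and Selp, Mettl18 was slightly lower in UV2 (4.31 against 6.18 CPM, log2 fold change -0.52, SE 0.15, edgeR adjusted p = 0.0149). F5, which encodes coagulation factor V and starts 1.81 kb after Selp, had 2 counts over the UV2 libraries and 51 over those of bEnd.3, and the bEnd.3 to UV2 ratio was 23.5 (exact 95% counting interval 6.17 to 199). Sele thus rose while Mettl18 on one side of it and Selp on the other were lower in UV2. The overlapping Gm16548 had a log2 fold change of -4.44 (SE 0.78, edgeR adjusted p = 0.00136), but it is not a measure separate from Selp. Fractions in its expected counts complement those of Selp, such as 48.52 beside 9064.48 in bEnd.3 replicate 1. The counting thus divided reads between these genes.

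The sequences before the starts of Sele, Icam1 and Selp are shown because these genes lay on opposite sides of the comparison. Each is the 250 bases before the RefSeq start on GRCm38.p6, the assembly of mm10, read 5′ to 3′ on the plus strand. The RefSeq table of promoters gave 4 of the 10 genes, these 3 and F11r. Capitals mark matches to GGANNNTCC, a pattern that takes in several known NF-kB sites and reads the same on both strands, and to TATAAA, searched on both strands. The patterns were chosen with the sequences in view.
Sele, chr1:164047984-164048233: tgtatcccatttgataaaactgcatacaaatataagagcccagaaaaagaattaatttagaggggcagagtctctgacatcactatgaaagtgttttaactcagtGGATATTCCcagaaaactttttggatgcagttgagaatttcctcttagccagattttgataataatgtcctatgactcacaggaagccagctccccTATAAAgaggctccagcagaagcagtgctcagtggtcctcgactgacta
Icam1, chr9:21015690-21015939: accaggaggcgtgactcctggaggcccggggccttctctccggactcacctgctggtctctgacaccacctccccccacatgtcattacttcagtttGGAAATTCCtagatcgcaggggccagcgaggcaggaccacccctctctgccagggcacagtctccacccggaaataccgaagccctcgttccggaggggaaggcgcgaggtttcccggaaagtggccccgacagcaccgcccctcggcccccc
Selp, chr1:164115014-164115263: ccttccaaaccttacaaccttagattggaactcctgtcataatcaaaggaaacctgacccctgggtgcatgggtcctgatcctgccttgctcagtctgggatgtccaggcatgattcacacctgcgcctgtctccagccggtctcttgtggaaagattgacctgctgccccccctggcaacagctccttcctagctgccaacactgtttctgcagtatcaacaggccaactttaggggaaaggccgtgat
With the last base before the start counted as -1, Sele held GGATATTCC at -145 to -137 and TATAAA at -49 to -44. This start lies inside the annotated span of Sele, which reaches further upstream. Icam1 held GGAAATTCC at -153 to -145 and no TATAAA. The windows of Selp and F11r held neither pattern. Of all 32851 promoter windows of this length in the table, 7.27% held GGANNNTCC and 12.4% held TATAAA. GC content was 40.4% in the Sele window, 65.2% in that of Icam1, 53.6% in that of Selp and 60.0% in that of F11r, beside a median of 52.4% over all windows. A match is a description of letters and not a shown binding site.

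Among the receptors for leukocyte integrins, Vcam1 and Icam1 were higher in UV2 and Icam2 was not called. Vcam1, on chromosome 3 at 116110020 to 116129688, encodes the endothelial partner of the integrin VLA-4 on lymphocytes and monocytes. It had 111, 86.6 and 100 CPM in UV2 replicates 1, 2 and 3, against 18.03, 15.2 and 11.6 CPM in bEnd.3 replicates 1, 2 and 3. The lines did not come near each other. Vcam1 had the largest rise of the 10 genes, 6.66-fold (log2 fold change 2.74, SE 0.17, adjusted p = 5.71e-06).

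Icam1, on chromosome 9 at 21015940 to 21028814, encodes a partner of the leukocyte integrins LFA-1 and Mac-1 and is the classical inducible ICAM. Its counts were low in both lines, 126, 72 and 110 in UV2 replicates 1, 2 and 3, against 16, 19 and 29 in bEnd.3 replicates 1, 2 and 3. As levels these were 5.32, 3.49 and 4.24 CPM in UV2 and 0.718, 0.773 and 0.984 CPM in bEnd.3. The UV2 libraries were all above those of bEnd.3, by 5.21-fold (log2 fold change 2.38, SE 0.24, adjusted p = 7.85e-05). Even so, Icam1 remained the least abundant but one of the 10 transcripts per kilobase in UV2 and the least abundant in bEnd.3.

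Icam2, on chromosome 11 at 106377656 to 106388139, encodes a constitutive LFA-1 partner of endothelium. It had 405.2, 443.5 and 493 CPM in UV2 replicates 1, 2 and 3, against 425, 429 and 437 CPM in bEnd.3 replicates 1, 2 and 3. The UV2 libraries lay on both sides of the bEnd.3 libraries. The log2 fold change was 0.06 (SE 0.08, edgeR adjusted p = 0.571), with a 95% interval of -0.14 to 0.25. Its sign turned without UV2 replicate 3 (-0.02) and with library totals in place of TMM (-0.01).

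The proportion of Vcam1 to Icam1 overlapped between the lines. Per kilobase, Vcam1 stood 15.3, 18.1 and 17.2 times above Icam1 in UV2 replicates 1, 2 and 3, against 18.4, 14.4 and 8.64 times in bEnd.3 replicates 1, 2 and 3. The constitutive Icam2 stood 151 to 251 times above Icam1 in UV2 and 878 to 1170 times above it in bEnd.3. The ranges did not overlap, and Icam2 was the leading ICAM transcript in every library.

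**Figure D2:**
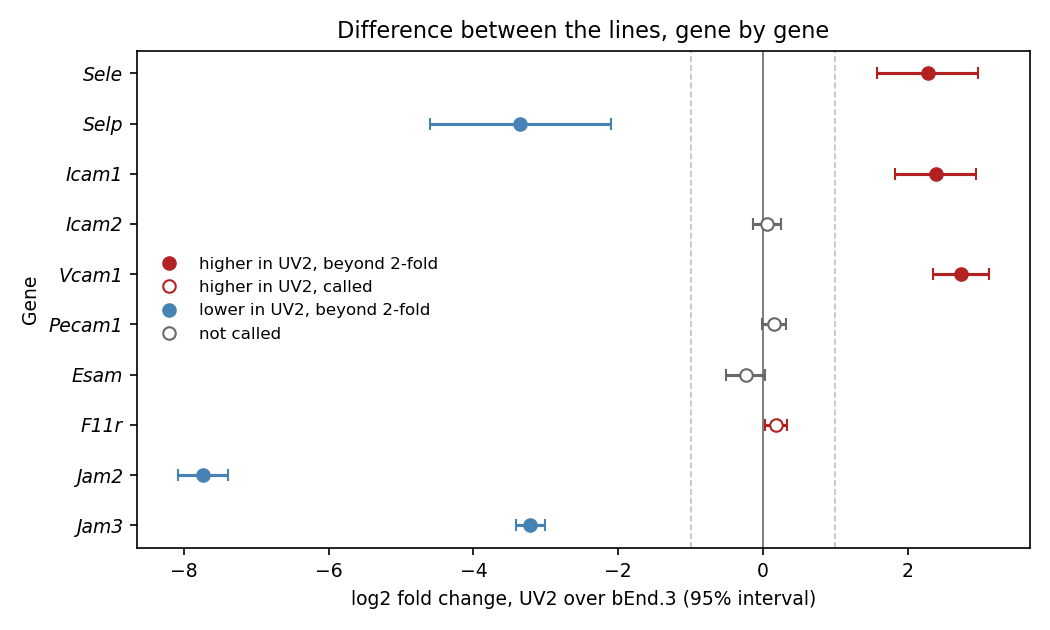
Log2 fold change of each gene, UV2 over bEnd.3, from edgeR's quasi-likelihood fit, with its 95% interval. Dashed lines mark 2-fold. Jam2 stands furthest from 0 at -7.73, Selp has the widest interval (-4.60 to -2.11), and Icam2, Pecam1, Esam and F11r lie inside the dashed lines.

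Of the JAM genes, Jam2 and Jam3 were much lower in UV2 and F11r was slightly higher. JAMs are immunoglobulin-superfamily proteins of tight junctions that bind one another between neighbouring cells and also bind leukocyte integrins. Jam2 encodes JAM-B, which is found mainly in endothelium, and lies on chromosome 16 at 84774123 to 84826380. It had 2.75, 2.62 and 3.82 CPM in UV2 replicates 1, 2 and 3, against 681, 629 and 663 CPM in bEnd.3 replicates 1, 2 and 3. The values in each line were close together and the lines were 213-fold apart (log2 fold change -7.73, SE 0.15, adjusted p = 4.42e-08). The transcript was still counted in every UV2 library, with 54 to 99 counts.

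Jam3 encodes JAM-C, a partner of JAM-B and of the integrin Mac-1, and lies on chromosome 9 at 27097384 to 27155421. It had 18.6, 18.9 and 18.5 CPM in UV2 replicates 1, 2 and 3, against 160, 169 and 191 CPM in bEnd.3 replicates 1, 2 and 3. The UV2 libraries were nearly alike, and the fall was 9.28-fold (log2 fold change -3.21, SE 0.09, adjusted p = 1.18e-07). F11r encodes JAM-A, which binds LFA-1 and is also made by epithelium and leukocytes, and lies on chromosome 1 at 171437561 to 171464593. It had 522, 537 and 563 CPM in UV2 replicates 1, 2 and 3, against 497, 464 and 472 CPM in bEnd.3 replicates 1, 2 and 3. The lines did not overlap, but the gap was small (log2 fold change 0.18, SE 0.07, edgeR adjusted p = 0.0425). With the replicate number as a block F11r was not called (adjusted p = 0.0606), and it was called in 6 of 14 alternatives. With each chromosome's median fold change removed its log2 fold change was 0.47.

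Per kilobase the JAM transcripts summed to 217, 224 and 234 CPM per kb in UV2 replicates 1, 2 and 3, against 436, 415 and 437 CPM per kb in bEnd.3 replicates 1, 2 and 3. F11r made up 95.3% to 95.6% of this sum in UV2 and 42.8% to 45.3% in bEnd.3. Jam2 made up 0.268% to 0.374% in UV2 and 34.7% to 35.8% in bEnd.3, and Jam3 4.07% to 4.41% in UV2 and 18.9% to 22.5% in bEnd.3. UV2 thus carried JAM-A RNA nearly alone, while bEnd.3 carried all 3 JAM transcripts in quantity.

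**Figure D3:**
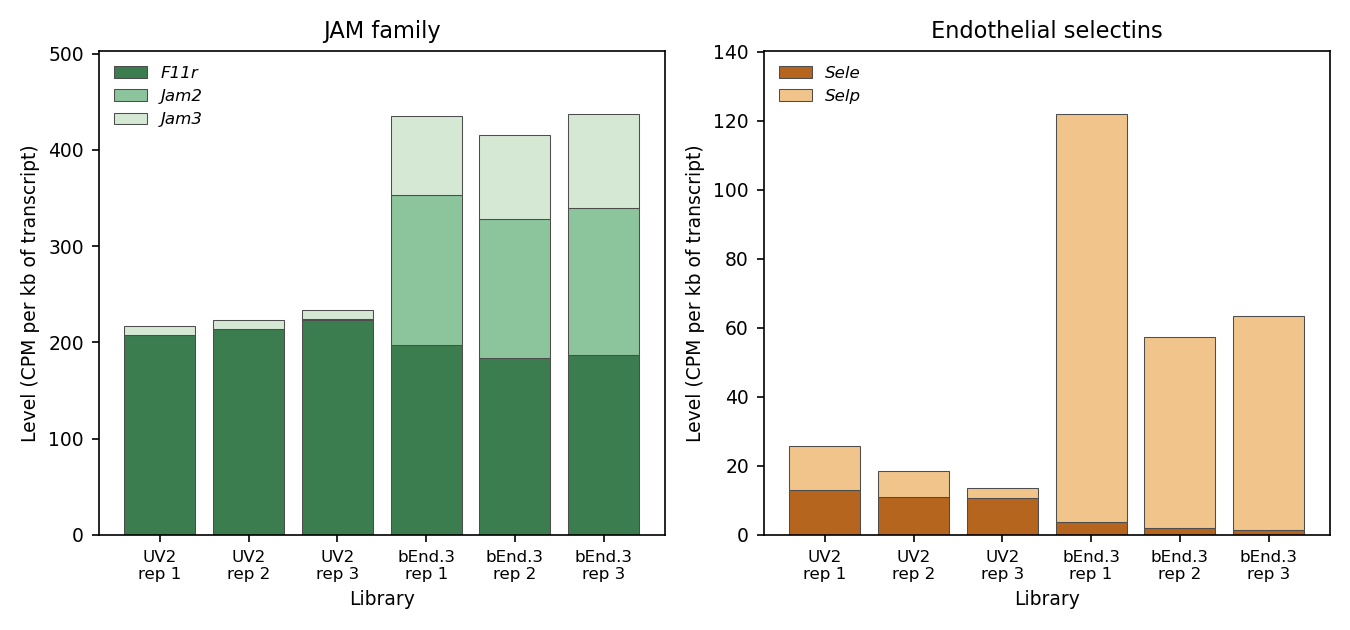
Stacked levels of the JAM transcripts (left) and of the endothelial selectin transcripts (right) in each library, in CPM per kb of the longest coding transcript. F11r alone fills 95.3% to 95.6% of the UV2 bars on the left, and Selp fills most of the bEnd.3 bars on the right.

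The other junction molecules, Pecam1 and Esam, were high in both lines and not called. Pecam1, on chromosome 11 at 106654213 to 106715281, encodes PECAM-1 (CD31), which binds to itself between endothelial cells and leukocytes during transmigration. It had 2202, 2189 and 2106 CPM in UV2 replicates 1, 2 and 3, against 1952, 1878 and 2025 CPM in bEnd.3 replicates 1, 2 and 3. All UV2 libraries were above all bEnd.3 libraries, with a log2 fold change of 0.15 (95% interval -0.01 to 0.31, edgeR adjusted p = 0.0927). It was called by DESeq2 (adjusted p = 0.0347) and with each chromosome's median fold change removed (log2 fold change 0.25, edgeR adjusted p = 0.0168).

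Esam encodes the endothelial cell-selective adhesion molecule, a JAM-related protein of tight junctions, and lies on chromosome 9 at 37528089 to 37538319. It had 607, 568 and 678 CPM in UV2 replicates 1, 2 and 3, against 850, 673 and 670 CPM in bEnd.3 replicates 1, 2 and 3. The highest UV2 library lay above 2 of the bEnd.3 libraries, and bEnd.3 replicate 1 stood apart from the others of its line. The log2 fold change was -0.24 (95% interval -0.51 to 0.03, edgeR adjusted p = 0.0964). Without bEnd.3 replicate 1 it was -0.12 (adjusted p = 0.269). Esam was called lower with library totals in place of TMM (-0.31, adjusted p = 0.0396) and was 0.02 with chromosome medians removed.

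Ordered by level per kilobase, Pecam1 led in both lines, with 629.5 ± 15.15 CPM per kb in UV2 and 567 ± 21.3 CPM per kb in bEnd.3 (SD, n = 3 each), place 75 among 11727 tested genes of known length in each. In UV2 it was followed by Icam2 (349 ± 34.4) and Esam (331 ± 29.98), whose libraries overlapped, then F11r (215 ± 8.185) and, after a gap, Vcam1 (28.6 ± 3.56), Sele (11.6 ± 1.295), Jam3 (9.61 ± 0.114), Selp (7.70 ± 4.99), Icam1 (1.72 ± 0.364) and Jam2 (0.7003 ± 0.151). The libraries of Selp overlapped those of Sele and Jam3. In bEnd.3 the order after Pecam1 was Esam (392 ± 55.4), Icam2 (336 ± 5.01), F11r (189.6 ± 6.85), Jam2 (150.5 ± 6.01), Jam3 (89.2 ± 8.11), Selp (78.5 ± 34.6), Vcam1 (4.31 ± 0.923), Sele (2.425 ± 1.19) and Icam1 (0.326 ± 0.0555). There the libraries of Jam3 and Selp overlapped, as did those of Vcam1 and Sele. Jam2 stood at place 10348 of 11727 in UV2 and at place 347 in bEnd.3. With the length of all annotated exons instead, Sele and Vcam1 changed places in both lines, and so did Jam3 and Selp.

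Of the 7 called genes, Jam3 was the 1 whose nearest tested coding genes on both sides were called in its own direction. Called neighbours are common, since 33.9% of all tested genes were called higher in UV2 and 33.3% lower. How often both neighbours of any gene are called in its direction was not computed. Jam2 lies between Mrpl39 (log2 fold change -0.26, SE 0.11, edgeR adjusted p = 0.0554) and Atp5j (-0.35, SE 0.06, adjusted p = 0.00156), 38.9 kb and 1.49 kb away, beside its own -7.73. Jam3 lies between Ncapd3 (-1.16, SE 0.12) and AI414108 (-4.11, SE 0.26), 0.861 kb and 143.7 kb away, both called lower in UV2. Icam1 lies between Mrpl4 and Fdx1l, neither of which was called (log2 fold changes 0.15 and -0.20). Vcam1 lies between Extl2 (0.35, SE 0.10) and Cdc14a (-0.65, SE 0.10), which were called in opposite directions. The median log2 fold change of the tested genes with an average log2 CPM above 3 was -0.29 on chromosome 1, 0.25 on chromosome 3, -0.26 on chromosome 9, -0.10 on chromosome 11 and -0.02 on chromosome 16.

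**Figure D4:**
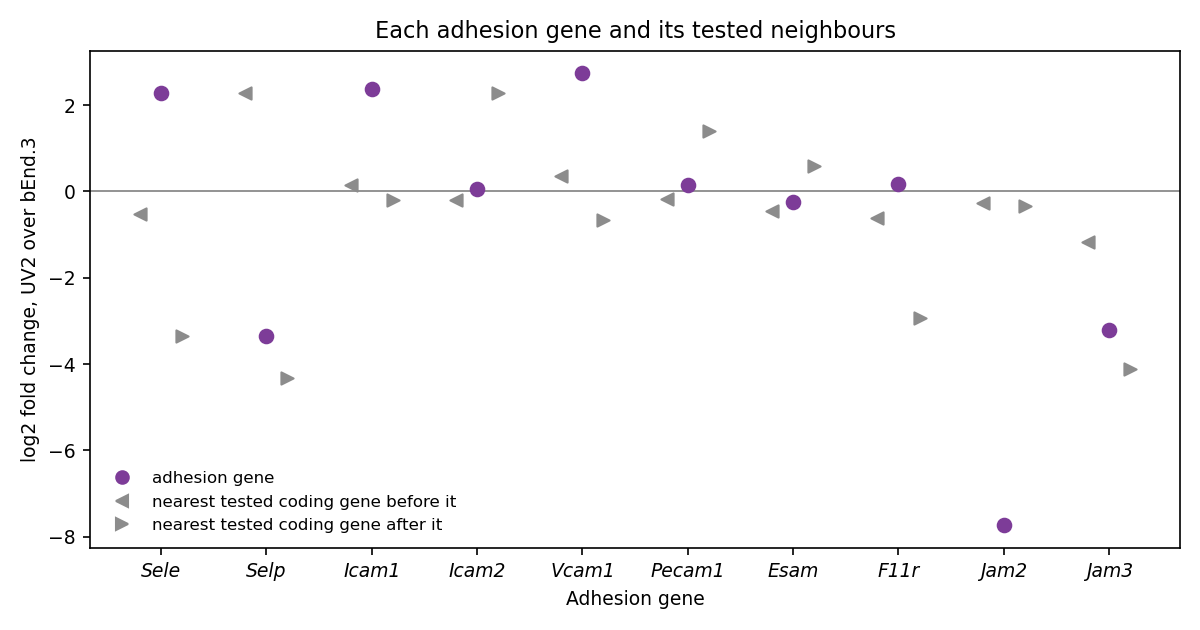
Log2 fold change, UV2 over bEnd.3, of each adhesion gene (circle) and of the nearest tested coding gene on each side of it (triangles). Jam2 lies at -7.73 with neighbours at -0.26 and -0.35, and Sele at 2.27 with neighbours at -0.52 and -3.35. The fitted value of F5, after Selp, rests on 2 counts in UV2.

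The gene lists that follow are described by their counts, beside the 33.9% of all tested genes called higher in UV2 and the 33.3% called lower, and no test of a list was run. In a list of 28 cytokine receptors, NF-kB components and their brakes, which act upstream of the inducible molecules, 16 were called higher, 2 lower and 10 were not called, with a median log2 fold change of 0.46. With the replicate number as a block 4 were called lower. Without UV2 replicate 3 this count was also 4. Tnfrsf1b, the TNF receptor TNFR2, had 8391 counts over the UV2 libraries and 2 over the bEnd.3 libraries, a ratio of 4558 (exact 95% counting interval 1261 to 37645). Il4ra, a subunit of the receptors for IL-4 and IL-13, stood at 112 ± 13.1 CPM in UV2 and 10.2 ± 3.07 CPM in bEnd.3 (log2 fold change 3.45, SE 0.21, edgeR adjusted p = 6.18e-06). The subunits Nfkb1, Nfkb2, Rela and Relb were each called higher, by log2 fold changes of 0.67, 1.14, 0.60 and 0.70, as were the inhibitors Nfkbia (0.48) and Nfkbie (1.13). The other subunit gene, Rel (-0.29), and the brakes Nfkbib (0.21) and Tnfaip3 (0.31) were not called. The 2 lower genes were Ikbkg, the regulatory subunit of the IKK complex (-0.39, SE 0.06), and Ifngr2, a subunit of the interferon-gamma receptor (-0.53, SE 0.11). Klf2 and Klf4, transcription factors that restrain endothelial inflammation, were not called (-0.30 and -0.23).

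Surface proteases can cut adhesion molecules from the cell. Of 9 listed genes, 6 proteases and 3 regulators of them, 5 were called higher in UV2, all of them proteases, 1 was called lower and 3 were not called, with a median log2 fold change of 0.56. Adam8 stood at 91.4 ± 1.215 CPM in UV2 and 7.22 ± 2.33 CPM in bEnd.3 (log2 fold change 3.67, SE 0.19, edgeR adjusted p = 2.72e-06). Mmp9, a secreted gelatinase, had 530 counts over the UV2 libraries and 2 over those of bEnd.3, a ratio of 288 (exact 95% counting interval 79.3 to 2384). Adam17, which sheds VCAM-1 and other surface proteins, was higher by 0.65 on the log2 scale (SE 0.07). Adam10 (0.04) and the regulators Timp3 (0.03) and Rhbdf2 (0.01) were not called. Rhbdf1, which encodes the ADAM17 partner iRhom1, was the 1 lower gene (-0.56, SE 0.11).

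Other adhesion and transmigration receptors went both ways, with 6 of 17 tested genes called higher in UV2, 10 lower and 1, Cdh5, not called. The median log2 fold change was -0.39. Mcam (CD146), an endothelial adhesion molecule, stood at 7.31 ± 2.15 CPM in UV2 and 1244 ± 133 CPM in bEnd.3 (log2 fold change -7.40, SE 0.23, edgeR adjusted p = 2.11e-07). The nectin gene Nectin3, listed under its older symbol Pvrl3, stood at 1.39 ± 0.328 CPM in UV2 and 29.4 ± 1.79 CPM in bEnd.3 (-4.40, SE 0.17). Bst1 (CD157), a surface ADP-ribosyl cyclase, stood at 534 ± 33.5 CPM in UV2 and 31.6 ± 8.64 CPM in bEnd.3 (4.08, SE 0.19), and L1cam at 3.36 ± 0.644 CPM in UV2 and 0.315 ± 0.131 CPM in bEnd.3 (3.36, SE 0.32). Ptprb, the phosphatase VE-PTP that holds VE-cadherin junctions closed, was lower by 1.12 on the log2 scale (SE 0.14).

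Of 12 selectin counter-receptors and sialomucins, 9 were tested, of which 4 were called higher in UV2, 2 lower and 3 were not called, with a median log2 fold change of 0.50. Glycam1, a mucin-like molecule of high endothelial venules, had 305 counts over the UV2 libraries and 1 over those of bEnd.3, a ratio of 331 (exact 95% counting interval 59 to 13131). Cd24a, a P-selectin ligand, stood at 4.62 ± 1.24 CPM in UV2 and 0.972 ± 0.479 CPM in bEnd.3 (log2 fold change 2.26, SE 0.37, edgeR adjusted p = 0.00104). Emcn (endomucin), a sialomucin that hinders leukocyte binding, stood at 281 ± 29.2 CPM in UV2 and 780 ± 57.2 CPM in bEnd.3 (-1.47, SE 0.10), and Podxl (podocalyxin) at 353 ± 52.1 CPM in UV2 and 638 ± 60.6 CPM in bEnd.3 (-0.85, SE 0.12). Cd34 was abundant in both lines and not called (0.11, SE 0.11).

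P-selectin shares its granules with von Willebrand factor, and the genes of that granule were called in both directions. Of 17 genes for storage and release, 7 were called higher in UV2, 4 lower and 6 were not called, with a median log2 fold change of 0.22. Vwf itself stood at 870 ± 74.1 CPM in UV2 and 84.6 ± 47.6 CPM in bEnd.3 (log2 fold change 3.36, SE 0.46, edgeR adjusted p = 0.000366), beside the -3.35 of Selp. Sytl4 (granuphilin), which acts in granule release, stood at 17.6 ± 1.37 CPM in UV2 and 0.0625 ± 0.0342 CPM in bEnd.3 (7.96, SE 0.24), with 5 counts over the bEnd.3 libraries. Rab27a, a GTPase that holds granules at the cell edge, stood at 14.8 ± 0.959 CPM in UV2 and 41.2 ± 1.48 CPM in bEnd.3 (-1.47, SE 0.08), and Unc13d at 0.779 ± 0.206 CPM in UV2 and 2.10 ± 0.270 CPM in bEnd.3 (-1.43, SE 0.25).

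Inside the cell, ICAM-1 and VCAM-1 are tied to actin by linker proteins that form a cup around the leukocyte. Of 21 such genes, 12 were called higher in UV2, 4 lower and 5 were not called, with a median log2 fold change of 0.32. With chromosome medians removed 7 were called higher and 2 lower. The kinase gene Ptk2b (PYK2) stood at 68.8 ± 0.638 CPM in UV2 and 2.52 ± 0.634 CPM in bEnd.3 (log2 fold change 4.75, SE 0.16, edgeR adjusted p = 3.17e-07), and Vcl (vinculin) at 777 ± 11.5 CPM in UV2 and 302 ± 37.6 CPM in bEnd.3 (1.36, SE 0.10). Ptk2b and Vcl both lie on chromosome 14, where the median log2 fold change was 0.72. Cav1 (caveolin-1) was lower by 0.79 on the log2 scale (SE 0.10) and Rdx (radixin) by 0.72 (SE 0.07).

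Of 18 scaffold and signalling partners of the junctional molecules, 6 were called higher in UV2, 5 lower and 7 were not called, with a median log2 fold change of 0.01, shares close to those of all tested genes. With library totals in place of TMM 6 were called higher and 9 lower. Cask, a membrane scaffold kinase, stood at 78.5 ± 10.97 CPM in UV2 and 15.1 ± 1.30 CPM in bEnd.3 (log2 fold change 2.38, SE 0.12, edgeR adjusted p = 2.52e-06). Patj, listed under the older symbol Inadl, was lower by 1.73 on the log2 scale (SE 0.29) at 0.377 ± 0.118 CPM in UV2 and 1.28 ± 0.0243 CPM in bEnd.3, and Gna11 was lower by 0.61 (SE 0.06). Over all tested genes the median log2 fold change was -0.01.

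**Figure D5:**
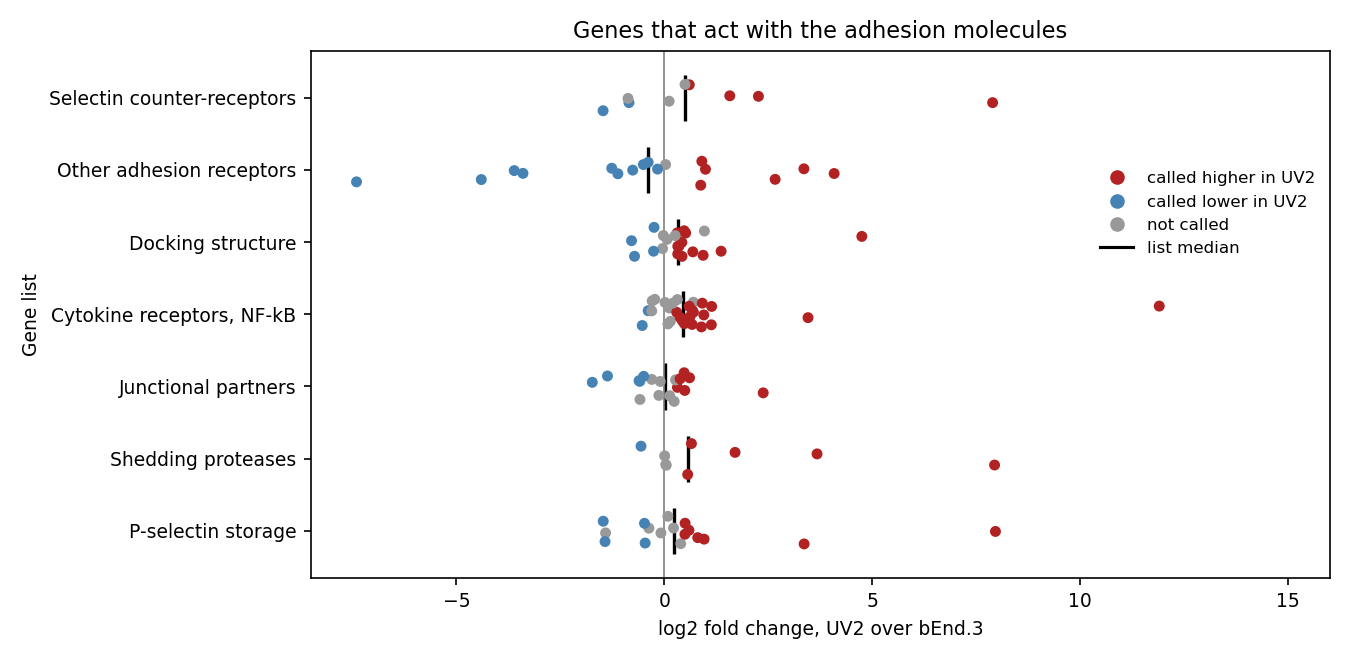
Log2 fold change, UV2 over bEnd.3, of every tested gene in 7 lists of genes that act with the adhesion molecules. Red points were called higher in UV2, blue points lower, grey points were not called, and black bars are list medians, from -0.39 to 0.56. The fitted values of Glycam1, Tnfrsf1b and Mmp9, at the far right of their lists, rest on 1 or 2 counts in bEnd.3.

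The genes whose profiles over the 6 libraries lay nearest to Vcam1, by Euclidean distance of centred log2(CPM + 0.5) values, were Shroom3 (distance 0.238), Ccbe1 (0.345) and Klhdc8a (0.375), with log2 fold changes of 3.17, 3.85 and 3.49. Nearest to Jam2 were Mcam (0.408), Wisp1 (0.437) and Ttyh1 (0.4598), with log2 fold changes of -7.40, -9.95 and -7.79. The added 0.5 compresses differences at low values, such as Wisp1 in UV2 (0.0837 CPM) and Ccbe1 in bEnd.3 (0.361 CPM). No test was run on these distances.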

How the data were processed

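The data are bulk RNA-seq of 3 UV2 and 3 bEnd.3 libraries, made with a stranded mRNA kit per the labels' protocols. Per the submitters' processing notes, the tools were Trim Galore, STAR and RSEM and the build was mm10. Their versions, the annotation and the strand setting were not given in the sources used here. What the authors deposited were expected counts per gene symbol, not normalized, which share reads among genes that fit equally. Of the members, Selp alone had values that were not whole. The genes antisense to Icam1, Vcam1 and Jam3 are not among the counted genes, and neither is Gm16587, antisense to Selp. Selp and Gm16548 shared reads although they lie on opposite strands, so the counting did not keep those reads apart by strand. Reads from the uncounted antisense genes could therefore have entered the members' counts. They overlap 1159 exon bases of Jam3, 511 of Icam1, 186 of Selp and 61 of Vcam1. How many such reads were counted is not known. The reference is a C57BL/6 genome, and the strain difference between the lines could affect mapping.

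Expected counts were rounded, filtered with filterByExpr (12720 of 24411 genes kept) and fitted with edgeR 4.0.16 (quasi-likelihood, TMM, group as the only term, R 4.3.3). Differences beyond 2-fold were tested with glmTreat. Intervals are 95%, and counting intervals are exact and cover counting error only, since reads are not independent molecules. Lengths came from GENCODE vM21, and positions and promoters from the RefSeq tables of GRCm38.p6, with 99.7% of tested genes placed by symbol or synonym. The procedure was also run on simulated counts with the same dispersion for every gene, few changed genes and no pairing. That setting is simpler than these data, so the run does not show how well the procedure performs on them. Replicates differed by more than counting noise (chi-square per degree of freedom 11.3 to 38.4).

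The members, gene lists, tests and alternatives were chosen with earlier results of these data known. Named were the members, the 2 highest and 2 lowest called genes per list whose mean reached 1 CPM in either line, the neighbours of Sele and Selp, and the 3 nearest profiles of the highest and lowest called member. Other genes named, and the neighbours of the other members, were chosen after their values were seen. Cd99, in 1 list, was not analysed here. Some genes that the rule names are not reported here. Deviations from the line mean correlated between same-numbered libraries (r = 0.17, 0.30 and 0.35 across 9605 genes, which are not independent replicates). Between libraries of unlike number r ran from -0.36 to 0.10. Deviations cancel out within each line, so these correlations are not independent of each other. The titles' replicate numbers may therefore mark pairs. The main fit leaves this pairing out, so its SEs and p-values do not account for it. A fit with the replicate number as a block is an alternative. Other alternatives were size factors as in DESeq2, library totals, no filter, at least 1 CPM in 3 libraries, DESeq2 1.42.0, limma-voom 3.58.1, chromosome medians removed and each library left out.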

Additional observations from a re-analysis of the deposited data

How the results depend on the processing

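Sele, Selp, Icam1, Vcam1, Jam2 and Jam3 kept their direction and their call in all 14 alternatives, with log2 fold changes of 2.01 to 2.73, -3.93 to -2.93, 2.23 to 2.64, 2.48 to 2.89, -7.93 to -7.64 and -3.28 to -2.95. The small differences moved. F11r lost its call with library totals (0.11), no filter (0.18) and the replicate block (0.18), and in 5 of the 6 fits with a library left out (0.15 to 0.22), all but that without bEnd.3 replicate 1 (adjusted p 0.0314 there, 0.0512 to 0.138 in the others). Pecam1 was called with chromosome medians removed (0.25) and by DESeq2 (0.16). Esam was called with library totals (-0.31) and turned sign with chromosome medians removed (0.02), and ranged from -0.31 to -0.12 with a library left out, uncalled each time. Icam2 turned sign with library totals (-0.01) and ranged from -0.02 to 0.13 with a library left out. Of the lists, the docking genes had 7 called higher and 2 lower with chromosome medians removed, the NF-kB list had 4 called lower with that setting and with the replicate block and 2 to 4 with a library left out, and the junctional partners had 9 called lower with library totals. The block changed no other call of the 10 genes. The cause of these changes was not tested. Library totals moved the median of all tested genes to -0.08. Depth limits Icam1 in bEnd.3 (16 to 29 counts) and Jam2 in UV2 (54 to 99 counts).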
